A study of Mus musculus with 6 samples.

Results

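The nuclei described here are GABAergic neurons that carried RNA of Rmst, Baiap3, Ecel1 or Resp18, genes better known from subcortical than from cortical neurons. They were chosen by counts of unique molecular identifiers (UMIs), the tags that mark single RNA molecules, from 6 single-nucleus RNA libraries of mouse frontal lobe. A nucleus was kept when it had at least 500 genes and no more than 5% of its UMIs from mitochondrial genes. A kept nucleus entered the gate with at least 3 UMIs summed over Rmst, Baiap3, Ecel1 and Resp18 and at least 2 of Gad1 and Gad2. It could have no more than 1 UMI of the vesicular glutamate transporters Slc17a6 and Slc17a7, 1 of the cholinergic genes Chat, Slc5a7 and Slc18a3, 2 of the striatal genes Rgs9 and Adcy5, 1 of Otof and Tshz1, and fewer than 5 of Sst. This left 278 of 30840 kept nuclei. Since these counts chose the nuclei, the levels of the gate genes are a description and carry no test.

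The SwDI/TKO mice carried the Tg-SwDI transgene and a knockout of Trem2, and the SwDI/TWT mice carried the transgene with intact Trem2, with 3 mice and 1 library per mouse in each group. Tg-SwDI mice express human APP with the Swedish, Dutch and Iowa mutations from a Thy1 promoter and develop amyloid in brain vessels, and both groups share this background. The sources used here do not give the age of the mice. The comparison between genotypes asks what loss of Trem2, a receptor of microglia, changes in an amyloid-laden brain, and the gated neurons are not cells in which Trem2 is normally active.

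As background, GABAergic neurons make their transmitter with the glutamate decarboxylases encoded by Gad1 and Gad2 and load it into vesicles with the transporter encoded by Slc32a1. Many subcortical GABAergic neurons also release peptides from dense-core vesicles. Baiap3 encodes a Munc13-related protein that acts in dense-core vesicle maturation and trafficking. Ecel1 encodes a neprilysin-family peptidase of neurons, Resp18 an endocrine secretory protein, and Rmst a long noncoding RNA that partners with Sox2 in neurogenesis. In mm10 coordinates Rmst lies on the minus strand of chr10:92071037-92165170 and is annotated as a long intergenic noncoding RNA. The other 3 are protein-coding genes on minus strands, Baiap3 at chr17:25242659-25256364, Ecel1 at chr1:87147655-87156521 and Resp18 at chr1:75272199-75278415.

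The libraries were unequal in a way that touches every result. SwDI/TKO replicate 1 was processed with Cell Ranger 7.0.0 and the other 5 with 6.1.2, per the file headers. Rbfox1, a gene with very long introns, stood at 4623 CPM (UMI counts scaled to a common library total) over all kept nuclei of that library and at 112 to 146 CPM in the other 5. Its gated nuclei had a median of 7326 UMIs, and those of the others had medians of 2306 to 3956. It held 143 of the 278 nuclei, against 14 and 46 in SwDI/TKO replicates 2 and 3 and 18, 25 and 32 in SwDI/TWT replicates 1, 2 and 3. Pairs of libraries shared 8 to 18 cell barcodes by sequence, and no gated nucleus had a barcode that was gated in 2 libraries.

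Rmst carried most of the gate and Ecel1 the least. Of the 278 nuclei, 198 had a UMI of Rmst, 181 of Resp18, 113 of Baiap3 and 51 of Ecel1. Baiap3 or Ecel1 was seen in 140 nuclei, and both in 24. Another 51 nuclei had none of Rmst, Baiap3 and Ecel1 and entered on Resp18 alone. A sum of exactly 3 UMIs, the lowest that passes, was found in 79 nuclei, and 171 further nuclei that met every other condition had 2 and stayed out.

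The name Baiap3 Ecel1 did not hold in every library. SwDI/TKO replicate 2 had 0 UMIs of Baiap3 and 0 of Ecel1 in its 14 nuclei, where Rmst had 73 UMIs and Resp18 22. Baiap3 stood at 179 and 61.4 CPM in SwDI/TKO replicates 1 and 3 and at 121, 83.2 and 86.3 CPM in the SwDI/TWT libraries. Ecel1 stood at 30.4 and 75.5 CPM in SwDI/TKO replicates 1 and 3, against 162, 208 and 43.1 CPM in SwDI/TWT replicates 1, 2 and 3. The genotypes overlapped in both genes. Over all libraries Baiap3 was seen in 40.6% of the gated nuclei and in 1.53% of 7756 cortical glutamatergic nuclei (2 or more Slc17a7 UMIs, no more than 1 of Gad1 and Gad2), where free RNA would give the gene its floor. For Ecel1 these shares were 18.3% and 1.33%, at median depths of 2306 to 7326 UMIs in gated nuclei and 2947 to 9160 in the cortical ones.

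**Figure D1:**
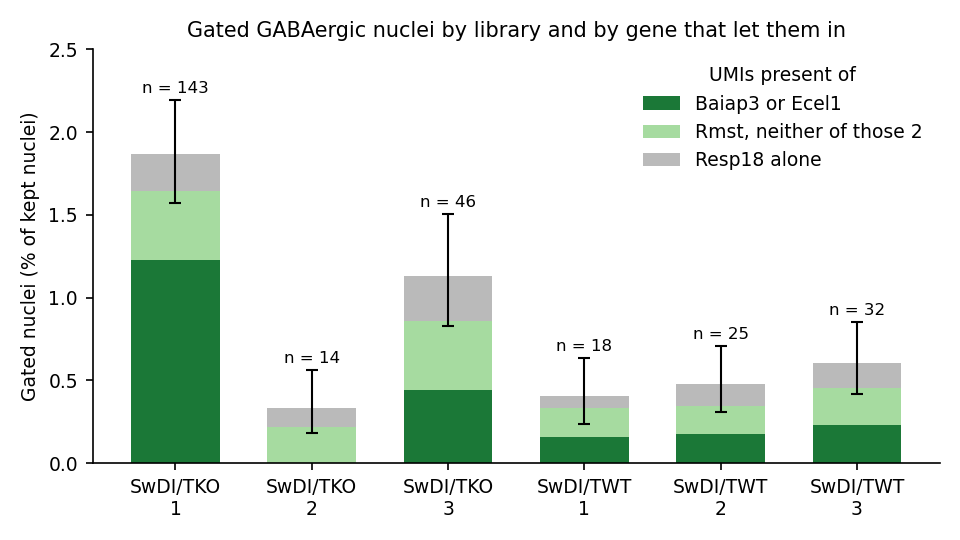
Gated nuclei as a percentage of the kept nuclei of each library (y axis), for 3 SwDI/TKO and 3 SwDI/TWT libraries, split by whether a nucleus held Baiap3 or Ecel1, Rmst without them, or Resp18 alone. Whiskers are exact 95% binomial intervals of the whole bar, which cover counting error only. SwDI/TKO replicate 1 is highest at 1.87%, SwDI/TKO replicate 2 lowest at 0.336%, and the bar of SwDI/TKO replicate 2 holds no Baiap3 or Ecel1.

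The GABAergic part of the name held in all 6 libraries. Gad2 had between 345 and 586 CPM and Gad1 between 211 and 591 CPM, as the gate required. Slc32a1, the vesicular GABA transporter, which the gate did not use, stood at 100.9, 394 and 363 CPM in SwDI/TKO replicates 1, 2 and 3 and at 384, 333 and 295 CPM in SwDI/TWT replicates 1, 2 and 3. It was seen in 58.6% of gated nuclei and in 4.02% of cortical glutamatergic nuclei. The neuronal glycine transporter gene Slc6a5 had no UMI in any of the 278 nuclei, which allows a share of up to 1.08% of nuclei with a UMI.

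Transcription factors that mark the hypothalamus and preoptic area, or the thalamus, midbrain and hindbrain, were close to absent. The hypothalamic list of 20 genes had 23 UMIs in all 278 nuclei, 11 of them from Onecut2, and 13 of its genes had none, among them Lhx1, Hmx2 and Six6. The thalamic, midbrain and hindbrain list of 14 genes had 10 UMIs, and 9 genes, Gata2, Gata3 and Tal1 among them, had none. Factors of the lateral ganglionic eminence, the embryonic source of striatal and olfactory neurons, were abundant. Their summed level ran from 1090 to 1290 CPM in SwDI/TKO libraries and from 661 to 1858 CPM in SwDI/TWT libraries. Meis2, a homeodomain factor of that list, had 596, 853 and 477 CPM in SwDI/TKO replicates 1, 2 and 3 and 1293, 236 and 223 CPM in SwDI/TWT replicates 1, 2 and 3. Meis2 gave most of the sum in SwDI/TKO replicate 2 and SwDI/TWT replicate 1, but not in SwDI/TKO replicate 3 or SwDI/TWT replicates 2 and 3. It was seen in 50% of gated nuclei, but also in 42.1% of cortical glutamatergic nuclei. Factors of the medial ganglionic eminence, the source of Sst interneurons, were present too. Over all libraries Sox6 had 357, Maf 122 and Satb1 68 UMIs in the gated nuclei, where Meis2 had 937. Since these lists did not place the nuclei in a region, they are called the gated nuclei from here on.

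Markers of other cells were low but present. The 8 astrocyte markers summed to between 145 and 197 CPM in SwDI/TKO libraries and to between 108 and 707 CPM in SwDI/TWT libraries. The high value was that of SwDI/TWT replicate 1, where the 19 immediate-early genes also summed to 1899 CPM, against 241 to 439 CPM in the other 5 libraries. Microglial markers ranged from 21.9 to 159 CPM in SwDI/TKO libraries and from 27.7 to 60.6 CPM in SwDI/TWT libraries. Cldn5, Flt1 and Rgs5 of the vascular list and Gjb6 of the astrocyte list had no UMI. The part of these markers in the results was not tested.

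The gated nuclei were not of one kind. Leiden clustering of their expression gave 6 groups, described here by the genes with the largest fold over the other gated nuclei and without a test, since the same counts made the groups. Group 1 had 86 nuclei and was led by Syt6, Gfra2, Ikzf2, Meis1 and Rmst. Syt6 was seen in only 15.1% of group 1 nuclei and in 8.33% of the other gated nuclei, so it does not mark the group. Group 2 had 84 nuclei and was led by Gal, Zfhx3, Nts, Dsel and Ecel1. The homeobox factor gene Zfhx3 was seen in 72.6% of group 2 nuclei and in 18.0% of the other gated nuclei, and Meis2 in 84.5% of group 2. Gal, which encodes the peptide galanin, rested on 30 UMIs in 4 nuclei. Group 3 had 50 nuclei and was led by Spp1, Syt2, Nefh, Nefm and Hmcn1, of which Nefh and Nefm encode the heavy and medium neurofilament chains of large axons and Syt2 a fast synaptotagmin of the vesicle release machinery. Nefm was seen in 48% of group 3 nuclei and in 8.33% of the rest, but Spp1 rested on 7 and Hmcn1 on 3 of the 50 nuclei.

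Groups 4, 5 and 6 were smaller and were led by genes of other interneurons. Group 4 had 24 nuclei led by Crhbp, Calb1, Moxd1, Col19a1 and Sst, and Sst was seen in 54.2% of them and in 12.2% of the other gated nuclei, always under the gate's limit of 5 UMIs. Group 5 had 22 nuclei led by Npy, Lamp5, Kit, Fgf13 and Kctd6, and Npy, which encodes neuropeptide Y, was seen in 72.7% of them and in 11.3% of the rest. Group 6 had 12 nuclei led by Vip, Tac2, Cxcl14, Crh and Adra1b. Vip, which encodes vasoactive intestinal peptide, was seen in 91.7% of group 6 and in 3.38% of the rest. Prox1 and Nr2f2, factors of the caudal ganglionic eminence, were each seen in 66.7% of group 6. In the rest they were seen in 7.52% and 13.9%. Lamp5, Vip and Tac2 stand on the list of cortical interneuron markers. Of group 5, 95.5% had entered on Resp18 alone, and of group 6, 75%. In groups 1, 2, 3 and 4 this share was 1.16%, 2.38%, 18% and 37.5%. At a finer resolution groups 5 and 6 stayed whole and group 4 kept 91.7% of its nuclei together, but the largest piece held 39.5% of group 1, 44.0% of group 2 and 66% of group 3, so these 3 depend on the resolution.

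**Figure D2:**
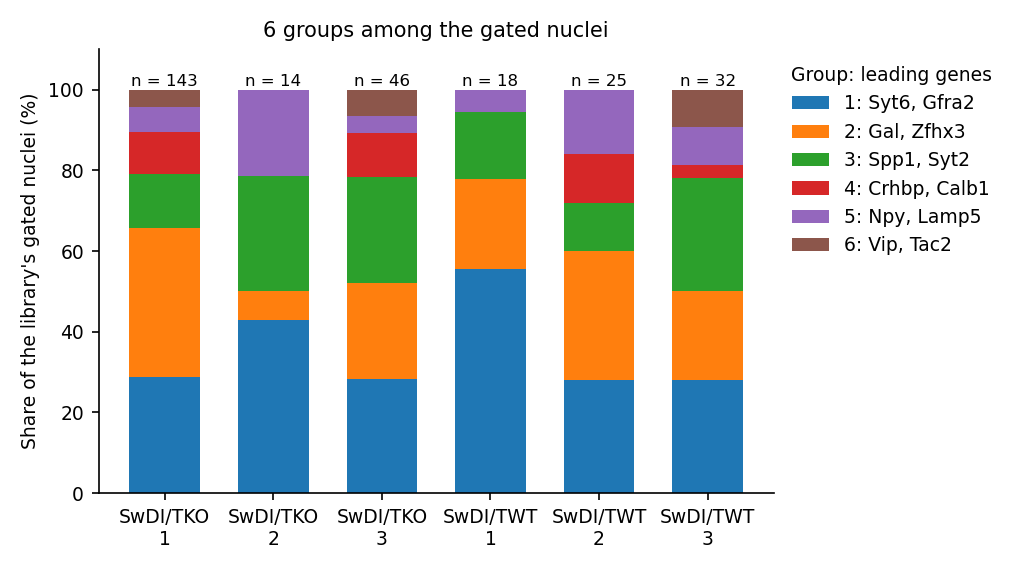
Share of each library's gated nuclei (y axis, percent) that fell in each of 6 Leiden groups, labelled by their 2 leading genes, for 3 SwDI/TKO and 3 SwDI/TWT libraries with the number of nuclei above each bar. Groups 1, 2, 3 and 5 have nuclei in all 6 libraries, while group 6 occurs in SwDI/TKO replicates 1 and 3 and in SwDI/TWT replicate 3.

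Peptide levels of a library came from few nuclei. Npy had 76, 1904 and 217 CPM in SwDI/TKO replicates 1, 2 and 3, against 40, 929 and 58 CPM in SwDI/TWT replicates 1, 2 and 3, and 254 of its 297 UMIs came from group 5. Vip had 47, 0 and 991 CPM in SwDI/TKO replicates 1, 2 and 3 and 283, 0 and 834 CPM in SwDI/TWT replicates 1, 2 and 3, with 372 of 394 UMIs from the 12 nuclei of group 6. Neither peptide separated the genotypes. Across the nuclei that entered on Resp18 alone, the receptor tyrosine kinase gene Kit was seen in 62.7% and Meis2 in 9.80%. In nuclei with Baiap3 or Ecel1 the order was the other way, with Kit in 8.57% and Meis2 in 59.3%, and nuclei with Rmst and neither Baiap3 nor Ecel1 had Meis2 in 58.6%. Median depths were 4393 UMIs for nuclei on Resp18 alone, 5521 for those with Baiap3 or Ecel1 and 4630 for the Rmst nuclei.

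Some other peptides were also concentrated in group 6. Over the 3 libraries used for it, mean CPM in group 6 and in the other gated nuclei was 982 and 54.7 for Cck. It was 729 and 11.8 for Tac2 and 531 and 16.9 for Crh. Penk was seen in 50% of group 6 nuclei and in 20.3% of the rest. Penk, the enkephalin precursor gene, had 30.3, 65.6 and 165 CPM in SwDI/TKO replicates 1, 2 and 3 and 141, 125 and 115 CPM in SwDI/TWT replicates 1, 2 and 3. Of the 34 neuropeptide genes listed, 9 had no UMI, among them Trh, Ghrh, Pmch and Kiss1, which mark hypothalamic neurons. Agrp, Avp and Oxt, also peptide genes of the hypothalamus, were seen in 17.5%, 4.39% and 2.19% of gated nuclei outside group 3. In group 3, Agrp was seen in 12% of nuclei, and Avp and Oxt had no UMI. Of 44 receptor genes for peptides and hormones, 2 had no UMI, Avpr1a and Ghsr. The prolactin receptor gene Prlr was seen in 20.2% of group 2 nuclei and in 9.28% of the other gated nuclei. The 23 imprinted genes summed to between 15478 and 31076 CPM in SwDI/TKO libraries and between 30018 and 40790 CPM in SwDI/TWT libraries, most of it Meg3, and the lowest sum was that of SwDI/TKO replicate 1.

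To see where the gated nuclei differed from another GABAergic class in the same mice, their summed counts were set against those of 179 nuclei that met the same exclusions but had 5 or more Sst UMIs. Levels in these tests are TMM-scaled CPM, that is CPM on a library size adjusted by edgeR over the genes tested, and differ from the plain CPM above. The gated nuclei had far more RNA of the homeodomain factors Pbx3 and Meis2 and of the RNA-binding protein gene Adarb2, and far less of Crhbp, Satb1, Sox6 and Maf. With mouse as a block and 6 mice, edgeR called 182 of 1874 genes at an adjusted p under 0.05 (9.71%), 75 higher (4%) and 107 lower (5.71%). Without SwDI/TKO replicate 1 there were 97 calls, 91 of them among the 182, and 152 of the 182 genes were still tested and all kept their direction. SwDI/TKO replicate 1 gave 62 of the 179 Sst-gated nuclei.

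Pbx3 had the largest fold of the genes that the gates did not use. Its lowest, median and highest level over the 6 mice was 193, 395 and 880 in gated nuclei, against 0, 8.30 and 25.8 in Sst-gated nuclei, a log2 difference of 5.03 ± 0.35 (SE, edgeR adjusted p = 1.7e-11). Every mouse was higher in gated nuclei, and the sets did not overlap. Meis2 had 333, 884 and 1877 in gated nuclei, against 0, 32.9 and 77.4 in Sst-gated nuclei (log2 4.46 ± 0.28, edgeR adjusted p = 1.9e-12). Adarb2 had 411, 1154 and 4950 in gated nuclei, against 0, 6.51 and 247 in Sst-gated nuclei (log2 4.96 ± 0.30, edgeR adjusted p = 9.4e-13). Both were also higher in all 6 mice without overlap. Without SwDI/TKO replicate 1 the log2 differences were 5.64 for Pbx3, 4.79 for Meis2 and 6.95 for Adarb2.

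Further genes on the higher side had other roles. Cacna2d1, which encodes an auxiliary calcium channel subunit, was 3.95 ± 0.31 higher on the log2 scale, and Arpp21, a cAMP-regulated phosphoprotein gene of striatal and cortical neurons, 2.98 ± 0.25. The factor gene Nfib followed with 2.70 ± 0.30, then the copine gene Cpne7 with 2.13, the sorting receptor gene Sorcs3 with 2.12, Csmd3 with 1.90 and Hap1, the huntingtin-associated protein gene, with 1.72. All were higher in 6 of 6 mice, and their edgeR adjusted p ran from 2.4e-10 for Cacna2d1 to 4.2e-06 for Hap1.

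**Figure D3:**
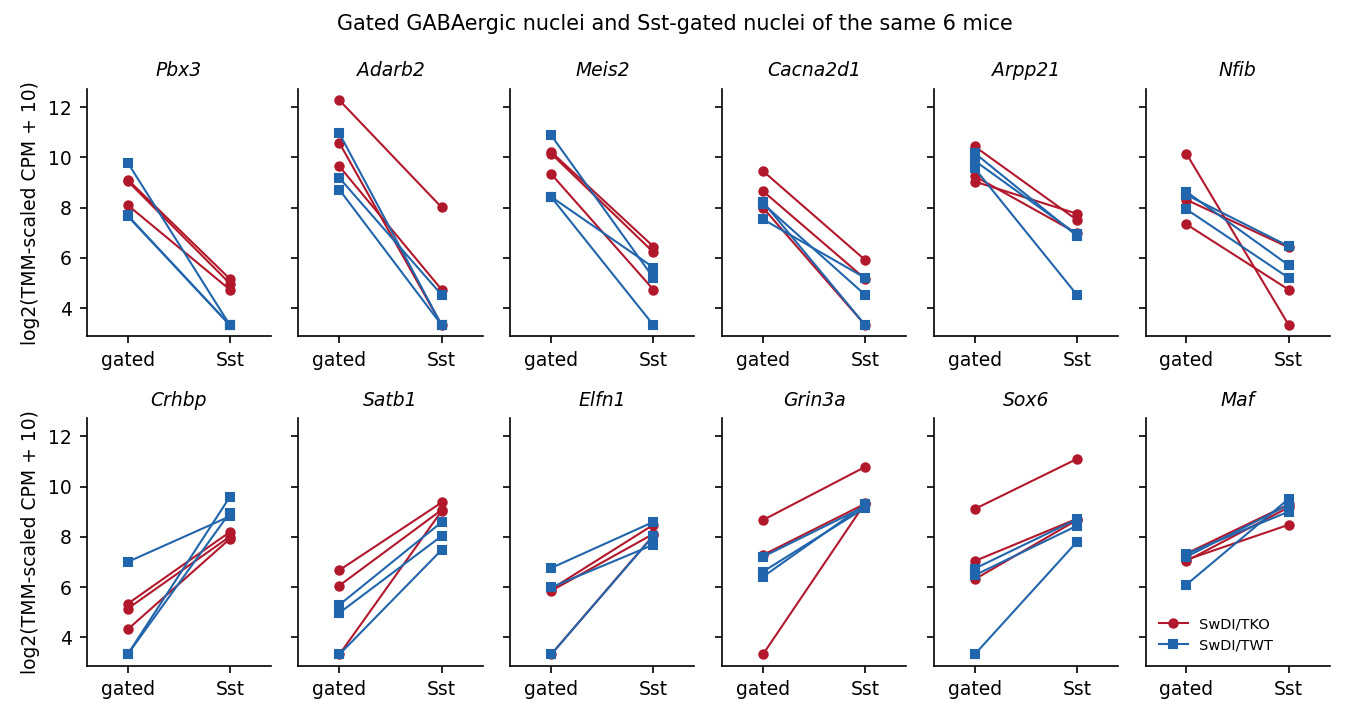
log2(TMM-scaled CPM + 10) of 12 genes in gated nuclei (left point) and Sst-gated nuclei (right point) of the same mouse, joined by a line, with SwDI/TKO mice as circles and SwDI/TWT mice as squares. In the upper row every line falls towards the Sst-gated nuclei, as for Pbx3, and in the lower row every line rises, as for Maf.

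On the lower side stood genes of interneurons from the medial ganglionic eminence, the source of Sst interneurons. Since the gates differed in Sst, lower levels of genes that go with Sst follow from that choice and are a description. Crhbp, the corticotropin-releasing hormone binding protein gene, had 0, 17.6 and 118 as lowest, median and highest level in gated nuclei, against 233, 363 and 764 in Sst-gated nuclei (log2 -3.95 ± 0.35, edgeR adjusted p = 1.7e-09). The 3 medial ganglionic eminence factors with enough counts to be tested, of 12 listed, were all called lower, as were 5.71% of all genes. They were the chromatin organiser gene Satb1 (log2 -3.12), Sox6 (log2 -2.14) and Maf (log2 -2.07), with a list median of -2.14, and the median of all 1874 genes was -0.0048. Maf had 58.7, 132 and 152 in gated nuclei, against 348, 591 and 724 in Sst-gated nuclei, and the sets did not overlap. The list of lateral ganglionic eminence factors had 2 tested members of 12, of which Meis2 was called.

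Also lower in all 6 mice were Trhde, which encodes an ectoenzyme that degrades thyrotropin-releasing hormone (log2 -2.96), Col19a1 (log2 -2.77), the postsynaptic adhesion protein gene Elfn1 (log2 -2.53), Man1a (log2 -2.35) and the cadherin gene Cdh9 (log2 -2.10). Reln, which encodes the matrix protein reelin, was lower by a log2 difference of -1.70 ± 0.29 (edgeR adjusted p = 6.9e-05). Npy was called lower, at log2 -2.30 ± 0.36 (edgeR adjusted p = 2.9e-05), and was lower in 5 of 6 mice. When nuclei that entered on Resp18 alone were left out, the Npy difference was -4.97 and that of Crhbp -4.99.

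Receptor genes split by transmitter. Of 20 GABA and glycine receptor genes, 9 were tested, 5 were called higher in gated nuclei and none lower, beside 4% and 5.71% of all genes, with a median log2 difference of 0.73. The subunit genes Gabrb2 (log2 1.19 ± 0.24, edgeR adjusted p = 0.00069), Gabrg3 (log2 1.07 ± 0.22, edgeR adjusted p = 0.00095) and Gabra2 (log2 0.80 ± 0.23, edgeR adjusted p = 0.022) of the GABA-A receptor were among the calls. Gabrb2 had 147, 198 and 621 as lowest, median and highest level in gated nuclei, against 26.0, 103 and 305 in Sst-gated nuclei. It was higher in gated nuclei of all 6 mice, although the sets overlapped. Without SwDI/TKO replicate 1, Gabra2 had log2 0.55 (edgeR adjusted p = 0.37), and Gabrg3 was no longer tested.

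Of 24 glutamate receptor genes, 15 were tested, 6 were called lower and none higher, beside 5.71% and 4% of all genes, with a median log2 difference of -0.27. Grin3a, which encodes the GluN3A subunit of NMDA receptors, had 0, 113 and 397 in gated nuclei, against 563, 624 and 1761 in Sst-gated nuclei (log2 -2.39 ± 0.23, edgeR adjusted p = 5.9e-09). Among the other calls, the kainate receptor gene Grik1 was at log2 -1.32, the AMPA receptor genes Gria1 at -1.22 and Gria3 at -0.72, and the NMDA receptor gene Grin2a at -0.61. All 6 were lower in every mouse. Without SwDI/TKO replicate 1 the same 6 genes were called, with Grin2a at an edgeR adjusted p of 0.049.

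Baiap3 acts among the dense-core vesicle genes. Of 20 listed genes 14 were tested, and 1, Pam, which encodes the enzyme that amidates peptides, was called, with log2 -1.07 ± 0.18 (edgeR adjusted p = 6.8e-05), a share near the 9.71% of all genes. The median of the list was -0.044. The granin genes Chga (log2 -0.08 ± 0.21), Chgb (log2 -0.10 ± 0.21) and Scg2 (log2 0.27 ± 0.16), which encode cargo proteins of these vesicles, were not called. In the Munc13 family, Unc13a and Unc13c were tested and not called, at log2 -0.24 ± 0.21 and -0.68 ± 0.28. In the neprilysin family only Ece2 was tested, at log2 -0.44 ± 0.22 and not called, and Kel had no UMI. Of 16 genes of amyloid handling 7 were tested and Thy1, whose promoter drives the transgene, was called higher, with log2 1.02 ± 0.24 (edgeR adjusted p = 0.0033), in 5 of 6 mice.

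A second comparison kept the requirement for Rmst, Baiap3, Ecel1 and Resp18 and changed the transmitter. It set the gated nuclei against nuclei with 3 or more UMIs of these genes, 2 or more of Slc17a6 and no more than 1 of Slc17a7, of Gad1 and Gad2 and of the cholinergic genes. There were 148 such nuclei, 98 of them in SwDI/TKO replicate 1, and 4 mice had 10 or more in both gates, SwDI/TKO replicates 1 and 3 and SwDI/TWT replicates 2 and 3. Genes of GABAergic identity were higher in the gated nuclei, and Meis1, Sv2b, Unc13c and Pcsk2 were lower. The 2 gates chose on Gad1, Gad2 and Slc17a6. Higher levels of genes that go with Gad1 and Gad2, such as Slc32a1 and Dlx6os1, follow from that choice. Their values and p-values describe the gates and are not a separate result. edgeR called 102 of 1905 genes (5.35%), 43 higher (2.26%) and 59 lower (3.1%), and without SwDI/TKO replicate 1 there were 49 calls, 43 of them among the 102.

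The vesicular GABA transporter gene was among the genes on the higher side. Slc32a1 had 186 and 484 in gated nuclei of SwDI/TKO replicates 1 and 3 and 470 and 446 in those of SwDI/TWT replicates 2 and 3, against 10.4, 17.8, 62.2 and 0 in the Slc17a6-gated nuclei of the same 4 mice. Gated nuclei were higher in every mouse (log2 4.17 ± 0.36, edgeR adjusted p = 1.7e-27). Dlx6os1, an RNA of the locus of the GABAergic factor Dlx6, had 337 UMIs in gated nuclei and none in Slc17a6-gated nuclei, which made it at least 80.1-fold higher with a floor of 3 UMIs over the 4 mice. Sox2ot, which overlaps Sox2, was higher by log2 4.88 ± 0.31. The sources used here do not say whether counting used strand, so reads of these RNAs and of their overlapping genes were not told apart. The neuregulin receptor gene Erbb4 (log2 2.51), Adarb2 (log2 2.01) and the factor gene Tcf4 (edgeR adjusted p = 1.2e-21) followed. Erbb4 ran from 152 to 4439 in gated nuclei and from 0 to 835 in Slc17a6-gated nuclei. Adarb2 ran from 568 to 4808 and from 17.8 to 1554, so in both genes the sets overlapped, although all 4 mice were higher in gated nuclei. Without SwDI/TKO replicate 1, Sox2ot and Erbb4 were no longer tested. Tcf4 had 1335 and 710 in gated nuclei of SwDI/TKO replicates 1 and 3 and 803 and 1209 in those of SwDI/TWT replicates 2 and 3, against 341, 124, 311 and 268 in Slc17a6-gated nuclei, without overlap.

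The homeobox gene Meis1 had the largest fold on the lower side, leaving out the gate gene Slc17a6. It had 64.0 and 31.4 in gated nuclei of SwDI/TKO replicates 1 and 3 and 19.6 and 43.6 in those of SwDI/TWT replicates 2 and 3, against 413, 142, 311 and 195 in Slc17a6-gated nuclei (log2 -2.64 ± 0.26, edgeR adjusted p = 3.8e-21). The synaptic vesicle gene Sv2b was lower by log2 -2.34 ± 0.25. In the Munc13 family 3 of 5 genes were tested and 2 were called lower, Unc13c (log2 -1.53 ± 0.19) and Unc13b (log2 -1.32 ± 0.22), with a median of -1.32. Over all 1905 genes 3.1% were called lower and the median was -0.0062. Munc13 proteins prime synaptic vesicles for release. Unc13c had 391 and 245 in gated nuclei of SwDI/TKO replicates 1 and 3 and 137 and 196 in those of SwDI/TWT replicates 2 and 3, against 1063, 621, 591 and 705 in Slc17a6-gated nuclei, without overlap.

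Pcsk2, which encodes a prohormone convertase, was the 1 call among 14 tested dense-core vesicle genes, a share near the 5.35% of all genes, so the count says nothing particular of the list. It had 482 and 402 in gated nuclei of SwDI/TKO replicates 1 and 3 and 294 and 283 in those of SwDI/TWT replicates 2 and 3, against 1088, 888, 1151 and 973 in Slc17a6-gated nuclei (log2 -1.36 ± 0.18, edgeR adjusted p = 1.9e-12). Cacna2d1, which was higher than in Sst-gated nuclei, was lower than in Slc17a6-gated nuclei, by log2 -1.36 ± 0.19 (edgeR adjusted p = 3.3e-11). The GABA and glycine receptor list had 10 tested genes and 1 call, Glra3 at log2 -0.88, and the glutamate receptor list had 14 tested genes and 1 call, Gria4 at log2 0.69, again near the 5.35% of all genes.

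For the genotype, Trem2 itself could not be read in the gated nuclei, where it had no UMI in any library. Over all kept nuclei it stood at 2.92, 11.2 and 5.76 CPM in SwDI/TKO replicates 1, 2 and 3 and at 20.4, 12.3 and 9.42 CPM in SwDI/TWT replicates 1, 2 and 3. The groups overlapped, and 3′ reads may come from outside the deleted part of the gene, whose position the sources used here do not give.

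The share of gated nuclei did not separate the genotypes. It was 1.87, 0.336 and 1.13% of kept nuclei in SwDI/TKO replicates 1, 2 and 3 and 0.403, 0.481 and 0.607% in SwDI/TWT replicates 1, 2 and 3. The lowest and the 2 highest values were all SwDI/TKO. The means were 1.11 ± 0.765% in SwDI/TKO mice and 0.497 ± 0.103% in SwDI/TWT mice (SD, n = 3 each), a difference of 0.614 percentage points with p = 0.4 in a two-sided exact permutation test whose smallest possible p is 0.1. When every nucleus was thinned to 1000 UMIs before the gate, 1, 4 and 1 nuclei passed in SwDI/TKO replicates 1, 2 and 3 and 2, 3 and 3 in SwDI/TWT replicates 1, 2 and 3, and the difference was -0.00699 percentage points. Thinning left out 233, 627 and 505 shallower nuclei in SwDI/TKO libraries and 699, 361 and 313 in SwDI/TWT libraries.

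No gene was called between genotypes in the gated nuclei. edgeR called 0 of 1963 genes (0%), with 114 at an unadjusted p under 0.05 (5.81%), 93 of them higher and 21 lower, and a smallest adjusted p of 0.754. DESeq2 called 0, and edgeR with no filter on low counts called 262 of 18480 genes, 258 higher and 4 lower. The 3 SwDI/TKO values lay outside the range of the 3 SwDI/TWT values for 195 genes (9.93%), 101 higher (5.15%) and 94 lower (4.79%). Genes with the smallest p in each direction are given as values.

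Chga, the chromogranin A gene, had the smallest p. It had 131, 90.6 and 211 TMM-scaled CPM in SwDI/TKO replicates 1, 2 and 3 and 468, 509 and 584 in SwDI/TWT replicates 1, 2 and 3, from 77, 3, 33, 16, 26 and 53 UMIs in that order. All SwDI/TKO mice were below all SwDI/TWT mice. The log2 difference was -1.79 ± 0.42 (edgeR adjusted p = 0.754), and between -2.16 and -1.57 with any 1 library left out, with adjusted p from 0.134 to 0.998 over all alternatives. Chgb, the chromogranin B gene, had 173, 272 and 282 in SwDI/TKO replicates 1, 2 and 3 and 497, 411 and 662 in SwDI/TWT replicates 1, 2 and 3 (log2 -1.15 ± 0.42, edgeR adjusted p = 0.754). Scg2, the secretogranin II gene, had 440, 604 and 756 in SwDI/TKO replicates 1, 2 and 3 and 760, 1879 and 1246 in SwDI/TWT replicates 1, 2 and 3 (log2 -1.12 ± 0.51, edgeR adjusted p = 0.754). On the TMM scale neither gene overlapped between genotypes. On plain CPM Chga and Chgb did not overlap either, but Scg2 did, with 225, 438 and 557 CPM in SwDI/TKO replicates 1, 2 and 3 and 525, 1331 and 812 CPM in SwDI/TWT replicates 1, 2 and 3. Without SwDI/TKO replicate 1, the library of the other Cell Ranger version, the log2 differences were -1.57 for Chga, -0.93 for Chgb and -0.91 for Scg2.

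The rest of their list did not share this pattern. Of 20 dense-core vesicle genes 15 were tested, 9 with a fitted difference below 0 and 6 above it, and a median of -0.23 against 0.05 over all genes tested. Chga, Chgb and Scg2 were the members that lay wholly below the SwDI/TWT mice on the TMM scale, 3 of 15 where 4.79% of all genes did so. On plain CPM these were Chga and Chgb, and 3.67% of all genes. Pcsk2 was the 1 member that lay wholly above the SwDI/TWT mice on both scales, where 5.15% of all genes did so on the TMM scale, with TMM-scaled CPM of 511, 543 and 410 in SwDI/TKO replicates 1, 2 and 3 and 146, 294 and 287 in SwDI/TWT replicates 1, 2 and 3 (log2 0.97 ± 0.42, edgeR adjusted p = 0.754). Ptprn, Scg5 and Cpe overlapped between genotypes, at log2 -0.33, -0.04 and 0.00. In cortical glutamatergic nuclei of the same libraries Chga had 41.1, 62.2 and 69.1 CPM in SwDI/TKO replicates 1, 2 and 3. It had 85.8, 104 and 91.0 CPM in SwDI/TWT replicates 1, 2 and 3, without overlap. How many of all genes did not overlap in cortical nuclei was not counted, so these values are a description. In Sst-gated nuclei Chga had 117, 71.9 and 172 CPM in SwDI/TKO replicates 1, 2 and 3. There it had 160, 374 and 292 CPM in SwDI/TWT replicates 1, 2 and 3, with overlap.

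**Figure D4:**
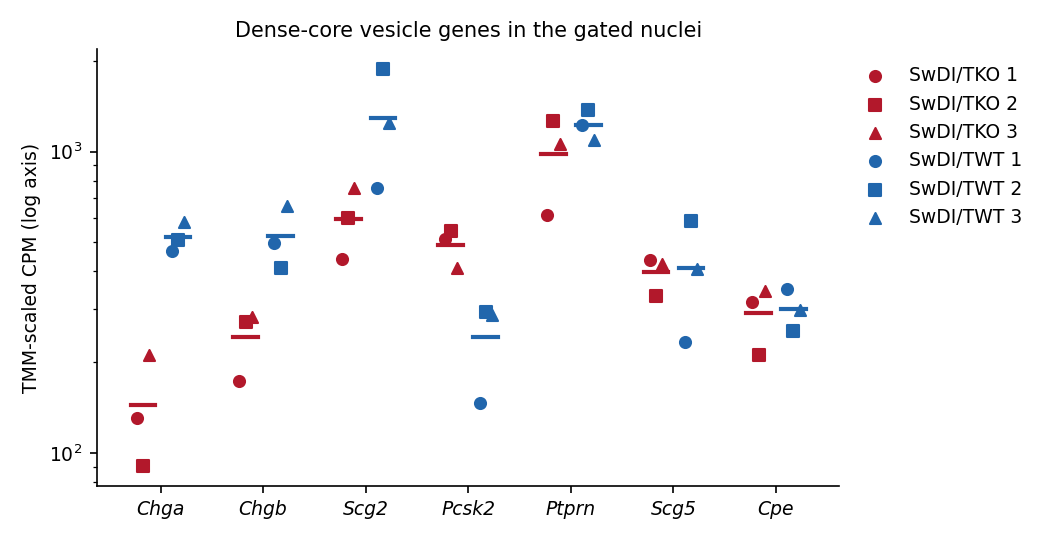
TMM-scaled CPM on a log axis of 7 dense-core vesicle genes in the gated nuclei, with 1 point per library, SwDI/TKO left of SwDI/TWT for each gene, and a line at the mean of 3 mice. Chga, Chgb and Scg2 lie lower in all 3 SwDI/TKO mice, Scg2 on this scale but not on plain CPM, and Pcsk2 lies higher, while Ptprn, Scg5 and Cpe overlap; none of the 7 was called.

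Granin promoters are known for a cAMP response element, the site bound by CREB, and the promoters of the 3 granin genes above are shown for that reason. The 200 bases before the annotated start are given 5′ to 3′ from RefSeq's GRCm38.p6 annotation, with matches to TGACGTCA, the full element, or TGACGTAA, a variant, in capitals; both strands of the 300 bases around each start were searched. Chga lies on the plus strand at chr12:102554741-102554940, Chgb on the plus strand at chr2:132781442-132781641 and Scg2 on the minus strand at chr1:79440027-79440226.
Chga: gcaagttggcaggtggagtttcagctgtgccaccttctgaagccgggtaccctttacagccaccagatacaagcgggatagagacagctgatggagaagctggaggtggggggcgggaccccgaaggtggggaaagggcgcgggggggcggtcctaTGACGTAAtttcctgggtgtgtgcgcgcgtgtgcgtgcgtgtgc
Chgb: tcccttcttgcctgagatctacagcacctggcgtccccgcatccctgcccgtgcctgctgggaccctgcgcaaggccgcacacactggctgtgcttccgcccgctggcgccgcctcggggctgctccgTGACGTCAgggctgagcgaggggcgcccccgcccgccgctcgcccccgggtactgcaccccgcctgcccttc
Scg2: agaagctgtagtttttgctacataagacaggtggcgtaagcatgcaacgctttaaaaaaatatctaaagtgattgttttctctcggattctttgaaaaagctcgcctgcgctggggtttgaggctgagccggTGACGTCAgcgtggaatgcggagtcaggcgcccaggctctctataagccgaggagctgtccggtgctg

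The match began 44 bases before the annotated start in Chga, 72 in Chgb and 68 in Scg2. Of the 32851 promoters in the table, 1.79% held TGACGTCA, 0.499% TGACGTAA and 2.28% either. Of the 15 listed dense-core vesicle genes with an entry, 4 held either motif. Among the 12 of them that were tested between genotypes, 3 held either motif, and these were the 3 shown. Whether the motif bears on the levels was not tested. Baiap3, Ecel1 and Resp18 had an entry and held neither. A match is a stretch of letters and was not tested as a site.

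The other genes with the smallest p had mixed roles. Mlf2 (log2 -1.31), the sugar transporter gene Slc50a1 (log2 -1.13) and Tmem91 (log2 -1.20) lay lower without overlap on the TMM scale, and Mlf2 overlapped on plain CPM. Wdfy3, which encodes an autophagy adaptor (log2 1.92), Galntl6 (log2 4.38), Ppp6r2 (log2 1.37), the histone acetyltransferase gene Crebbp (log2 1.42) and the G protein subunit gene Gnb1 (log2 1.56) lay higher without overlap. All had an edgeR adjusted p of 0.754. Galntl6 had 4817 TMM-scaled CPM in SwDI/TKO replicate 1, 151 and 269 in SwDI/TKO replicates 2 and 3, and 29.2, 58.7 and 143 in SwDI/TWT replicates 1, 2 and 3. Without SwDI/TKO replicate 1 only Crebbp of these 5 had enough counts to be tested, at log2 0.92.

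Receptor lists in the genotype comparison depended on SwDI/TKO replicate 1. Of 15 tested glutamate receptor genes 14 had a fitted log2 difference above 0, with a median log2 difference of 1.16 and no call. Without that library 3 of 11 were above 0, with a median of -0.13. For GABA and glycine receptor genes the median was 0.69 over 9 genes with all libraries and 0.05 over 7 without it. The dense-core vesicle list had 10 of 12 genes below 0 and a median of -0.16 without that library, where the median of all genes was 0.0073.

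App and Apoe, named for the amyloid background, were not called. App, the mouse amyloid precursor gene, had 1225, 724 and 1140 in SwDI/TKO replicates 1, 2 and 3 and 555, 822 and 1334 in SwDI/TWT replicates 1, 2 and 3 (log2 0.19 ± 0.50, edgeR adjusted p = 0.962). Apoe, a gene of astrocytes and microglia, had 129, 60.4 and 269 in SwDI/TKO replicates 1, 2 and 3 and 643, 215 and 88.2 in SwDI/TWT replicates 1, 2 and 3 (log2 -0.81 ± 0.71, edgeR adjusted p = 0.796). The highest Apoe value was in SwDI/TWT replicate 1, the library with the high astrocyte markers, and without it the Apoe difference was 0.13. The 8 tested genes of amyloid handling had a median of -0.47 and no call.

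The factor genes Meis2 and Zfhx3, which the gate did not use, were not called between genotypes. The fitted log2 difference was 0.25 ± 0.71 for Meis2 and 1.88 ± 1.10 for Zfhx3, and the genotypes overlapped in both.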

How the data were processed

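Single-nucleus 3′ RNA libraries of 6 mouse frontal lobes were deposited as raw UMI counts per gene and barcode, made by the authors with Cell Ranger (6.1.2 in 5 libraries and 7.0.0 in SwDI/TKO replicate 1, per the file headers) on mm10, per the submitters' processing notes, which also name Seurat. The sources used here give neither the intron setting nor the annotation release. The files held 11493087 to 51317961 UMIs per library. The members and gene lists were chosen with earlier results of these data known.

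Counts were summed per library and gate (at least 10 nuclei per sum) and tested with edgeR 4.0.16 in R 4.3.3 (quasi-likelihood, TMM, filterByExpr, Benjamini-Hochberg, threshold 0.05), with mouse as a block between gates and no block between genotypes. DESeq2 1.42.0, no filter, a gate of 5 UMIs, doublet removal and leaving out each library were alternatives. P-values between genotypes measure the spread between these 6 libraries. Those between gates measure the spread of the differences within mice, with 6 mice for Sst-gated nuclei and 4 for Slc17a6-gated nuclei. In all 3 tests edgeR drew the spread of each gene towards that of all genes. Against Slc17a6-gated nuclei the spread was nearly all shared between genes. Very small p-values there do not measure how well 4 mice agreed in that gene, and DESeq2 called 34 of the 102 genes. The SE of a log2 difference was derived from the edgeR F statistic. The edgeR tests were run on simulated counts that had the same spread for every gene and no difference between mice. That setting is simpler than these data, so it does not show how the tests behave on them. Shares were compared by an exact permutation test, and exact binomial intervals and floors of 3 counts cover counting error only. Scrublet called 1 and 2 nuclei in SwDI/TWT replicates 2 and 3, where it did not work, so the 6% highest scores were also left out, a choice made after seeing the data, as were the Resp18-alone, resolution and plain CPM alternatives. Groups came from scanpy 1.11.5 and leidenalg 0.10.2 at resolution 0.6. At resolution 1 there were 10 groups.

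Named genes were the 5 smallest p in each direction between genotypes, with App and Apoe, and, between gates, the 10 largest folds called in each direction with the same direction in all mice and at least 50 CPM, leaving out gate genes. To these came the most abundant tested members of each list. The 3 promoters were printed after the values of their genes were seen. Results of some genes are not reported here.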

Additional observations from a re-analysis of the deposited data

How the results depend on the processing

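No paired analysis was possible because the replicate numbers of the genotypes follow accession order and pair nothing; comparisons between gates already had mouse as a block. Between genotypes the count of genes called was 262 with no filter on low counts (258 higher, 4 lower) and between 0 and 1 with any 1 library left out, the 1 being Cadps2 without SwDI/TKO replicate 3. Against Sst-gated nuclei it was 106 by DESeq2, 481 with no filter and 97 to 211 with 1 library left out. Against Slc17a6-gated nuclei it was 34 by DESeq2, 176 with no filter, 60 without nuclei on Resp18 alone and 49 to 119 with 1 library left out, and a gate of 5 UMIs gave no fit. Of the fits that left out 1 library, the one without SwDI/TKO replicate 1 gave the lowest count in both. The difference in share was 0.614 percentage points as reported, -0.00699 when thinned to 1000 UMIs and 0.236 to 1.001 with 1 library left out.

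Of the 25 genes named between genotypes, App, Apoe, Pam, Cadps, Scg5, Sv2c and Cpe changed sign under some alternative, and none of these was called. With no filter, Galntl6 (log2 4.50) and Ptprn2 (log2 2.11) passed the threshold. With a gate of 5 UMIs the log2 difference was -0.0615 for App, 0.16 for Scg5 and -0.11 for Cpe. It was 0.23 for Scg5 without nuclei on Resp18 alone, -0.11 for Sv2c by DESeq2 and -0.10 for Cpe without the 6% highest doublet scores. With 1 library left out it ranged from -0.11 to 0.61 for App, -1.33 to 0.13 for Apoe, -0.35 to 1.13 for Pam, -0.13 to 1.05 for Cadps, -0.35 to 0.25 for Scg5, -0.29 to 0.45 for Sv2c and -0.15 to 0.14 for Cpe. Named genes of the gate comparisons kept their direction wherever they were tested, with 20 of 398 values against Sst-gated nuclei and 22 of 228 against Slc17a6-gated nuclei no longer past the threshold. Fits in which a gene was no longer tested are not among these values. Without SwDI/TKO replicate 1 this held for Cdh9, Gabrg3 and Sorcs3 against Sst-gated nuclei. Against Slc17a6-gated nuclei it held for Meis1, Sox2ot, Erbb4, Sv2b, Nfib, Nrgn, Car10, Bcl11b, Zfhx3, Glra3 and Homer1. Depth limits the results: SwDI/TKO replicate 2 had 14 gated nuclei and 45700 UMIs, and SwDI/TWT replicate 1 had 18 and 49504. The causes were not tested.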
